A study of Mus musculus with 10 samples.

Results

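The genes described here are the Wnt ligands, the Frizzled receptors and the genes that work with them, in RNA of lymphatic endothelial cells (LECs) sorted from the mouse meninges. They were taken by symbol from the count table: all Wnt, Fzd, Sfrp, Dkk and Rspo genes, Lgr4 to Lgr6, and 15 further genes of the receptor complex and the intracellular pathway. This gave 59 genes of 55401 in the table. The cells came from female C57BL/6 mice aged 3 months (wild-type C57BL/6J in the study's methods), and no transgene or Cre driver is named for them. There were 5 replicates from naive mice, which were not stressed, and 5 from stressed mice, which had gone through 6 days of changing stressors (sub-chronic variable stress, SCVS). Each replicate was a pool of the meninges of 3 to 4 animals, sorted as CD45-CD31+PDPN+ viable cells, so the spread between replicates is one between pools.

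Wnt proteins are secreted lipid-modified ligands that bind Frizzled receptors together with the co-receptors Lrp5 and Lrp6. In the canonical branch this stops a complex built on Axin and Apc from marking beta-catenin (Ctnnb1) for degradation, and beta-catenin then acts with the Tcf/Lef transcription factors. In brain and retinal blood vessels, Norrin (Ndp) signals through Fzd4 with the help of Tspan12, and Wnt7a and Wnt7b signal through a complex with Adgra2 (Gpr124) and Reck. In lymphatic endothelium, Wnt/beta-catenin signaling is known for its part in the formation of valves and collecting vessels.

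Total counts lay between 9984743 and 14094155 per replicate, so 3 counts, the level above which a gene is called detected here, stood for 0.213 to 0.300 CPM (counts scaled to a total of 1000000 in each replicate). Such limits speak of counting error alone, since the RNA was amplified before sequencing. Of the 6 pan-endothelial markers fixed for this purpose (Pecam1, Cdh5, Kdr, Tek, Tie1 and Emcn), all were detected in every replicate. Naive 5 stood apart with a summed level of 434 CPM for them against 3690 to 6676 CPM in the other 9 replicates. The 9 lymphatic markers summed to 74.4 to 2929 CPM in naive and 471 to 3243 CPM in SCVS replicates. Naive 1 was the lowest, with 5 of the 9 detected and with Prox1, Pdpn and Tbx1 at 0. The 8 blood endothelial markers summed to 313 to 10273 CPM in naive and 5219 to 9324 CPM in SCVS replicates. This was above the lymphatic sum in every replicate, although the gate selects podoplanin-positive cells. The 8 mural markers summed to 803 to 7688 CPM in naive and 431 to 5924 CPM in SCVS replicates. Marker sums were not scaled for exon length, and the lists differ in size. They do not give the share of each cell type, so the levels below are those of whole pools. Because naive 1 and naive 5 stood apart, counts over the Wnt genes, and the genes they touch most, are given with and without these replicates. The 8 leukocyte markers were lower in the naive group, at 0.672 to 618 CPM (median 58.7), than in the SCVS group, at 178 to 4193 CPM (median 302), with overlap, and their part in the comparisons was not tested. In such bulk samples, fewer cells of a type and less RNA per cell cannot be told apart.

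Of the 59 genes, 7 were detected in all 10 replicates: Ctnnb1, Apc, Tcf7l2, the receptors Fzd4 and Fzd6, the co-receptor Lrp6 and the tetraspanin Tspan12. A further 19 were detected in 5 to 9 replicates, 13 in 2 to 4, 8 in 1 and 12 in none. Of the latter, 7 had no count anywhere, namely Wnt3a, Wnt8a, Wnt10b, Wnt11, Dkk1, Dkk4 and Rspo4. At this depth, the other 5 (Wnt2b, Wnt9a, Wnt10a, Fzd10 and Rspo2) had at most 3 counts in a replicate. In the 8 replicates other than naive 1 and naive 5, 10 genes were detected throughout, and the added genes were Lef1, Rspo3 and Sfrp4. The number detected per replicate ranged from 18 (naive 1) to 29 (naive 2 and naive 4) in the naive group and from 24 to 26 in the SCVS group.

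**Figure D1:**
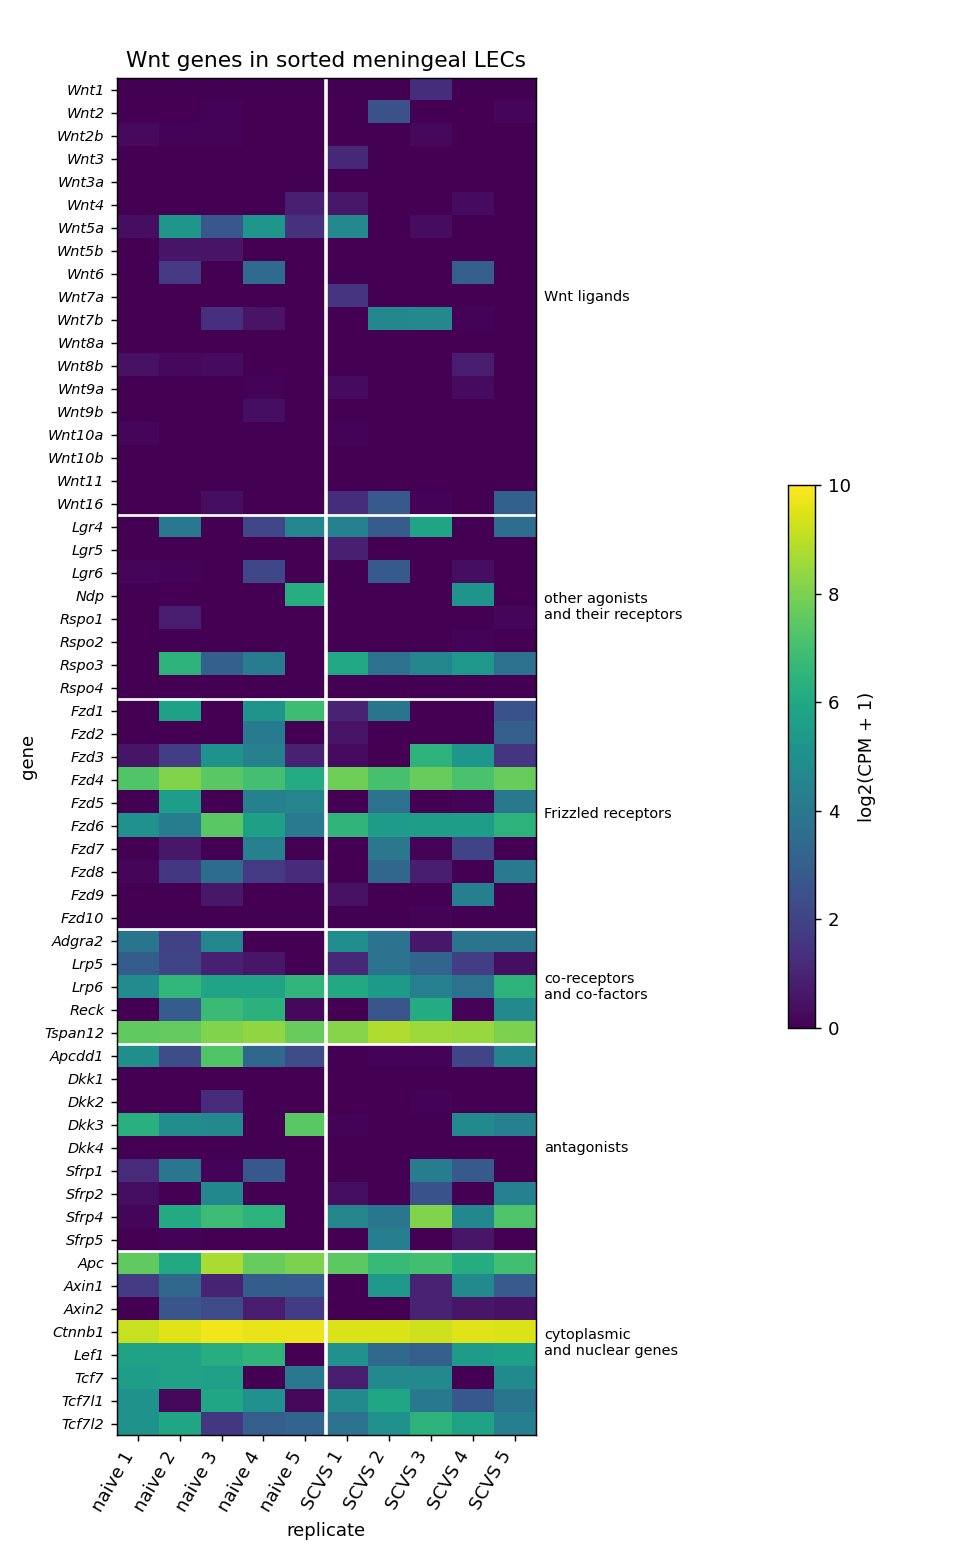
Level of each of the 59 Wnt genes as log2(CPM + 1), coded by color, in 5 naive and 5 SCVS replicates (columns), with genes in rows by role. Ctnnb1, Tspan12, Fzd4, Fzd6, Apc, Lrp6 and Tcf7l2 were detected in all 10 replicates, and most Wnt ligands were at or near 0.

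Wnt ligands were mostly undetected. Of the 19 ligands, none was detected in all replicates, 18 were detected in fewer than 5, and their summed level was 0.960 to 48.3 CPM in naive and 7.71 to 34.8 CPM in SCVS replicates. The most widely detected was Wnt5a, a ligand known mainly for non-canonical signaling. Its level was 0.288, 37.8, 5.65, 37.3 and 1.65 CPM in naive 1 to 5, and 24.8, 0, 0.243, 0 and 0 CPM in SCVS 1 to 5. In counts, Wnt5a passed the detection limit in 4 naive replicates and in SCVS 1 alone. The difference was -1.74 ± 2.26 (log2 fold change, SCVS over naive, ± SE) in edgeR's quasi-likelihood test, with an adjusted p of 1.00. This SE, like all those given for edgeR, was derived from the log2 fold change and the F statistic of the test. Wnt5a lies outside the rule for named genes and was taken up after its values were seen.

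Wnt16 had 0, 0, 4, 0 and 0 counts in naive 1 to 5 and 21, 73, 1, 0 and 76 counts in SCVS 1 to 5. Its SCVS mean was 3.04 ± 3.54 CPM (SD, n = 5), against 0.0572 ± 0.128 CPM in the naive group. Only SCVS 1, 2 and 5 lay above all naive replicates, and the gene passed the filter on low counts through these replicates alone. This gave a log2 fold change of 5.39 ± 2.19, with an unadjusted p of 0.0306 and an adjusted p of 1.00 (edgeR's quasi-likelihood test).

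Wnt7b, a ligand of the Adgra2 and Reck complex, was found in few replicates of either group. It had 0, 0, 22, 6 and 0 counts in naive and 0, 294, 308, 1 and 0 counts in SCVS replicates, so SCVS 2 and SCVS 3 held nearly all of its reads. Wnt7b had a log2 fold change of 4.49 ± 2.70 (adjusted p = 1.00, edgeR's quasi-likelihood test). Wnt7a, its close relative, had 27 counts in SCVS 1 and none in the other 9 replicates. Wnt6 was the remaining ligand with enough counts to be tested, with 28, 138 and 96 counts in naive 2, naive 4 and SCVS 4 and none elsewhere. The other ligands with any count reached at most 56 counts in a replicate (Wnt2 in SCVS 2).

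Among the other agonists, R-spondins act by sparing Frizzled and Lrp proteins from turnover, and Lgr4, Lgr5 and Lgr6 are their receptors. Rspo3 was detected in 8 of 10 replicates, at 0, 86.3, 7.44, 17.2 and 0 CPM in naive 1 to 5 and 62.8, 12.6, 23.2, 39.5 and 12.6 CPM in SCVS 1 to 5. It was thus present in every SCVS replicate and absent from naive 1 and naive 5. Naive 1 and naive 5 had the lowest lymphatic marker sums, at 74.4 and 196 CPM. Their pan-endothelial markers summed to 5565 and 434 CPM. The part of these marker levels in the Rspo3 counts was not tested. The groups overlapped and the log2 fold change was 0.45 ± 1.63 (adjusted p = 1.00, edgeR's quasi-likelihood test). It was -0.28 ± 0.99 without naive 1 and naive 5. Lgr4 was detected in 7 replicates, at 0 to 23.4 CPM (median 3.32) in naive and 0 to 56.7 CPM (median 11.1) in SCVS replicates. Lgr5 was found in SCVS 1 alone, with 12 counts, and Lgr6 in naive 4, SCVS 2 and SCVS 4.

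Norrin was detected in few pools. Ndp had 984 counts (73.8 CPM) in naive 5 and 460 counts (34.8 CPM) in SCVS 4, and 0 counts in each of the other 8 replicates. With counts in 2 replicates it was not tested. The 7 neuronal and glial markers summed to 3207 CPM in naive 5 and 1561 CPM in SCVS 4. In SCVS 5, where Ndp was at 0, they summed to 1879 CPM, and in the other 7 replicates to 99.7 to 897 CPM. Their part in the Ndp counts was not tested.

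By contrast, the receptor and the tetraspanin of the Norrin complex were detected in all replicates. The 250 bases before the RefSeq start sites of the 3 genes are shown because the genes of this complex differ so widely in detection, with each CG dinucleotide in capitals (build GRCm38.p6, 5′ to 3′ on the strand of the gene). The windows lie at chr7:89404116-89404365 (+) for Fzd4, chr6:21852534-21852783 (-) for Tspan12 and chrX:16911775-16912024 (-) for Ndp. The Tspan12 window lies inside the span that RefSeq gives to the whole gene, which holds a further upstream start.
Fzd4: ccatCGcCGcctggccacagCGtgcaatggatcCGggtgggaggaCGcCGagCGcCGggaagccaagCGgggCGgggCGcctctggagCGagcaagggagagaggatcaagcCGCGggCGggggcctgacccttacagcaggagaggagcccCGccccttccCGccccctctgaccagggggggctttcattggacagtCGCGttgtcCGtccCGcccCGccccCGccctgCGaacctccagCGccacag
Tspan12: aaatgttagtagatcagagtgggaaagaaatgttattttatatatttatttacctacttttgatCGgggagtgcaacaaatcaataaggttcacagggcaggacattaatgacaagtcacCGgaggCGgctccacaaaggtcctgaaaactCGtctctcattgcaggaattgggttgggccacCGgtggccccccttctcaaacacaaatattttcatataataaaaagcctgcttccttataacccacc
Ndp: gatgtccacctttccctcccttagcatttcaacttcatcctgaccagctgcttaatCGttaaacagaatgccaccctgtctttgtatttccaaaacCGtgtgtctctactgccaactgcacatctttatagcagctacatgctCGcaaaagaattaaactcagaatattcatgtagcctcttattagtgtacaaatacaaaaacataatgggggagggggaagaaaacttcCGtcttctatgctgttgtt
The Fzd4 window held 25 CG dinucleotides, the Tspan12 window 5 and the Ndp window 4, against a median of 6 over all 32851 windows of the promoter table. RefSeq windows were at hand for 38 of the 59 genes (47 windows), and their median was 20. The 6 windows of genes detected in all replicates had a median of 27.5 CG, and the 9 windows of genes detected in none had a median of 36. The Tcf/Lef motif, read as CTTTGAA or CTTTGAT or CTTTGTA or CTTTGTT on either strand, occurred in 8 of the 47 windows (17.0%) and in 14.8% of all windows. The Ndp window held it once, and the Fzd4 and Tspan12 windows did not hold these letters.

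Fzd4, the Norrin receptor, was the leading Frizzled. Its level was 154, 276, 174, 127 and 71.0 CPM in naive 1 to 5 and 218, 135, 202, 139 and 205 CPM in SCVS 1 to 5. The group means were 160 ± 75.3 and 180 ± 39.7 CPM (SD, n = 5 each), and the SCVS values all lay within the naive range. The log2 fold change was 0.14 ± 0.38 with all replicates, and -0.10 ± 0.36 without naive 1 and naive 5 (adjusted p = 1.00 in both, edgeR's quasi-likelihood test). Per kilobase of exon, Fzd4 held 35.6% to 83.6% (median 63.0%) of the summed Frizzled level and the largest share in 9 of 10 replicates. The exception was naive 5, where Fzd1 led with 49.9%. Without naive 1 and naive 5 the Fzd4 share lay between 46.7% and 75.4%.

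**Figure D2:**
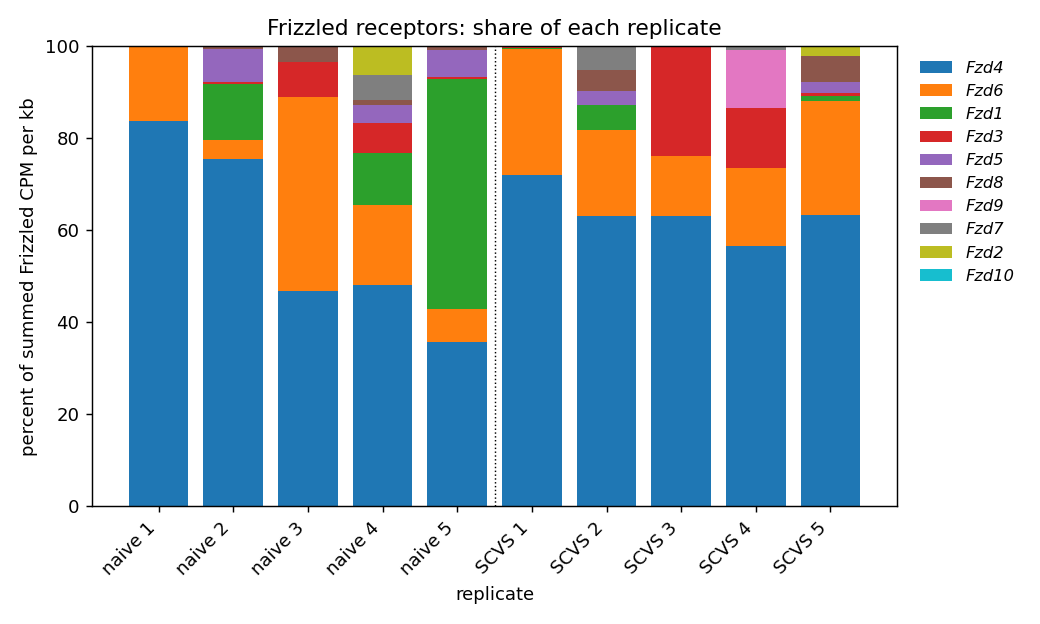
Share of each Frizzled gene in the summed Frizzled level (percent of CPM per kilobase of exon) in each naive and SCVS replicate. Fzd4 held the largest share in 9 of 10 replicates, and Fzd1 in naive 5, with 49.9%.

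Fzd6 was the other receptor detected throughout, with 32.7, 17.2, 174, 51.1 and 16.0 CPM in naive 1 to 5 and 91.7, 44.5, 46.2, 46.0 and 87.9 CPM in SCVS 1 to 5. Its naive values spanned the SCVS values, and its share of the Frizzled level ranged from 4.25% to 42.1%. The remaining 8 receptors came and went between replicates. Fzd1 had 0, 52.0, 0, 35.6 and 118 CPM in naive 1 to 5 and 0.993, 13.8, 0, 0 and 4.81 CPM in SCVS 1 to 5. Naive 2, 4 and 5 lay above every SCVS replicate and the other naive replicates were at 0. Fzd1 had a log2 fold change of -3.53 ± 2.28 with all replicates and -2.97 ± 2.38 without naive 1 and naive 5 (adjusted p = 1.00 in both, edgeR's quasi-likelihood test). Fzd5 was similar in form, at 0, 48.3, 0, 19.9 and 22.4 CPM in naive and 0, 12.2, 0, 0.0756 and 15.0 CPM in SCVS replicates, with a log2 fold change of -1.79 ± 2.36. Fzd3, known for its part in planar cell polarity, ranged from 0 to 87.2 CPM. Its log2 fold change of 1.18 ± 1.86 rested on SCVS 3, without which it was -0.24. Fzd2, Fzd7 and Fzd9 were detected in 3, 4 and 3 replicates, and Fzd8 in 7.

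Among the co-receptors and co-factors, Tspan12, which assists Norrin signaling through Fzd4, had the narrowest spread. Its level was 187, 193, 277, 323 and 202 CPM in naive 1 to 5 and 288, 449, 372, 354 and 261 CPM in SCVS 1 to 5. SCVS 2, 3 and 4 lay above the highest naive replicate, and SCVS 1 and SCVS 5 lay within the naive range. The group means were 237 ± 60.5 and 345 ± 74.1 CPM, and the log2 fold change was 0.50 ± 0.27 (adjusted p = 1.00, edgeR's quasi-likelihood test). An exact permutation test of mean CPM, two-sided, gave an unadjusted p of 0.0397, where the smallest possible value is 0.00794, and an adjusted p of 1.00 over all tested genes. Tspan12 had a log2 fold change of 0.36 ± 0.29 without naive 1 and naive 5.

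Lrp6 exceeded Lrp5 per kilobase in 10 of 10 replicates. Lrp6 was at 27.4, 97.7, 56.3, 56.5 and 94.5 CPM in naive and 67.0, 43.0, 19.4, 12.2 and 86.6 CPM in SCVS replicates, and all but the lowest 2 SCVS values lay within the naive range. Lrp5, the co-receptor also named in Norrin signaling, ranged from 0 to 6.72 CPM in naive and 0.300 to 13.0 CPM in SCVS replicates. Adgra2 was detected in 8 replicates, at 13.7, 2.98, 23.0, 0 and 0 CPM in naive and 29.0, 13.1, 0.568, 13.3 and 13.2 CPM in SCVS replicates. Reck was detected in 6 replicates, at 0, 6.42, 113, 84.0 and 0.150 CPM in naive and 0, 5.26, 70.3, 0.0756 and 26.9 CPM in SCVS replicates. Wnt7b, Adgra2 and Reck were detected together in naive 3, SCVS 2 and SCVS 3. The log2 fold changes were -0.58 ± 0.62 for Lrp6, 1.07 ± 1.66 for Lrp5, 0.71 ± 1.82 for Adgra2 and -0.96 ± 2.03 for Reck. The Reck value was -0.081 without naive 3, -2.35 without SCVS 3 and -1.71 ± 1.84 without naive 1 and naive 5.

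Antagonists were led by different genes in different pools. Sfrp proteins bind Wnt ligands and Dkk proteins bind Lrp co-receptors, although Dkk3 is a divergent member of its family. Sfrp4 led per kilobase in 5 replicates, Dkk3 in 3, and Apcdd1 and Sfrp5 in 1 each. Sfrp4 was at 0.0960, 69.1, 113, 88.5 and 0 CPM in naive 1 to 5 and 22.3, 14.1, 277, 24.4 and 152 CPM in SCVS 1 to 5. It had 1 count in naive 1 and none in naive 5, and was detected in every other replicate. Dkk3 was at 80.8, 30.1, 24.9, 0 and 172 CPM in naive and 0.0710, 0, 0, 26.4 and 19.5 CPM in SCVS replicates, and its highest value was in naive 5. Its log2 fold change was -2.76 ± 2.06 with all replicates and -0.98 ± 2.56 without naive 1 and naive 5.

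Apcdd1, a membrane antagonist that is also a known target of Wnt signaling, was detected in all 5 naive and 2 SCVS replicates. Its level was 30.6, 4.15, 154, 9.21 and 3.98 CPM in naive 1 to 5 and 0, 0.0821, 0.0811, 3.25 and 21.9 CPM in SCVS 1 to 5. All SCVS values except that of SCVS 5 lay below the naive range. The log2 fold change was -3.01 ± 1.90 (adjusted p = 1.00, edgeR's quasi-likelihood test), while it was -5.59 without SCVS 5, -1.26 without naive 3 and -3.48 ± 2.12 without naive 1 and naive 5. Sfrp1 and Sfrp2 were detected in 5 and 4 replicates at up to 17.8 and 24.7 CPM, Sfrp5 in SCVS 2 and SCVS 4, and Dkk2 in naive 3. The 8 fibroblast markers were higher in the naive group, at 67.0 to 2367 CPM (median 1128), than in the SCVS group, at 168 to 1817 CPM (median 247), with overlap, with 4 to 8 of them detected, Pdgfra at 0 in 3 naive replicates and 1 SCVS replicate. Their part in the antagonist counts was not tested.

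Inside the cell, Ctnnb1 was the steadiest of the Wnt genes. Its level was 565, 735, 891, 813 and 826 CPM in naive 1 to 5 and 699, 693, 620, 726 and 689 CPM in SCVS 1 to 5, a 1.57-fold range over all replicates. The SCVS values lay between the lowest and the second lowest naive values. The group means were 766 ± 125 and 685 ± 39.4 CPM and the log2 fold change was -0.20 ± 0.21, or -0.27 ± 0.21 without naive 1 and naive 5 (adjusted p = 1.00 in both, edgeR's quasi-likelihood test). Exons of Ctnnb1 overlap those of Ulk4 on the opposite strand, so that without stated use of strand some reads may belong to either gene. Apc, a scaffold of the degradation complex, was at 186, 66.2, 429, 203 and 262 CPM in naive and 178, 106, 125, 72.1 and 124 CPM in SCVS replicates. Naive 1, 3, 4 and 5 lay above every SCVS value, and naive 2 lay below them all. Apc had a log2 fold change of -0.97 ± 0.46 (unadjusted p = 0.0586, adjusted p = 1.00, edgeR's quasi-likelihood test), while it was -1.21 without naive 2 and -0.61 without naive 3.

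Axin2, a feedback inhibitor and the most widely used readout of canonical signaling, was low in all pools. It had 0, 66, 56, 10 and 32 counts in naive 1 to 5 and 0, 0, 12, 7 and 4 counts in SCVS 1 to 5. This gave 2.46 ± 2.17 CPM in naive and 0.381 ± 0.407 CPM in SCVS replicates (SD, n = 5 each). Naive 2, 3 and 5 lay above every SCVS replicate, and naive 1 was at 0. The log2 fold change was -2.63 ± 1.76 (adjusted p = 1.00, edgeR's quasi-likelihood test). Exons of Axin2 overlap an annotated gene on the opposite strand (Gm11670), as do those of Tcf7l1, Wnt5a, Wnt7b, Wnt11 and Sfrp2 with other genes, and their reads carry the same uncertainty. Axin1, its constitutive relative, was detected in 9 replicates at 0 to 40.7 CPM, with a log2 fold change of 1.46 ± 1.64.

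The Tcf/Lef factor with the largest share per kilobase changed from pool to pool: Tcf7 in 5 replicates, Tcf7l1 and Tcf7l2 in 2 each and Lef1 in 1. Lef1 was at 53.4, 53.3, 74.1, 91.4 and 0 CPM in naive 1 to 5 and 32.6, 10.0, 7.14, 45.7 and 48.4 CPM in SCVS 1 to 5. Naive 1 to 4 lay above every SCVS replicate, and naive 5 had no count. Its log2 fold change was -0.93 ± 1.21 with all replicates, -1.26 without naive 5 and -1.34 ± 0.76 without naive 1 and naive 5, with adjusted p of 1.00 in each (edgeR's quasi-likelihood test). Tcf7 was at 0 in naive 4 and SCVS 4 and reached 53.1 CPM in naive 2. Tcf7l1 ranged from 0.150 to 59.5 CPM and Tcf7l2 from 2.08 to 88.0 CPM, and their groups overlapped throughout. Their log2 fold changes were -1.15 ± 1.68 for Tcf7, -0.18 ± 1.36 for Tcf7l1 and 0.90 ± 0.97 for Tcf7l2.

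Levels of different Wnt genes were compared only per kilobase of exon. Over all 10 replicates the order of the 7 genes detected throughout was Ctnnb1 (142 ± 19.1 CPM per kb, SD), Tspan12 (111 ± 32.6), Fzd4 (46.2 ± 15.6), Fzd6 (14.9 ± 11.5), Apc (11.1 ± 6.87), Lrp6 (5.71 ± 3.13) and Tcf7l2 (3.62 ± 3.18). Each gene's range overlapped that of the next, and of these neighbours only Fzd4 lay above the next gene, Fzd6, in every replicate. Ctnnb1 exceeded Tspan12 in 8 and Tspan12 exceeded Fzd4 in 9 of 10 replicates.

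**Figure D3:**
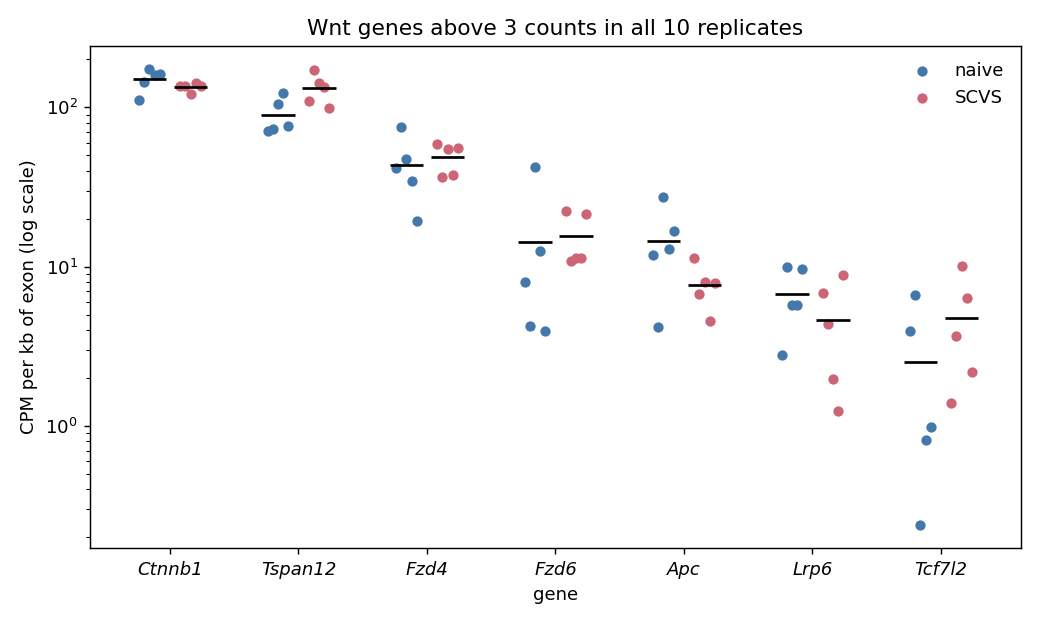
CPM per kilobase of exon (log scale) of the 7 Wnt genes detected in all 10 replicates, with 1 point per replicate, naive in blue and SCVS in red, and a bar at each group mean. The points of the groups overlap for every gene, and Ctnnb1 and Tspan12 have the narrowest spreads.

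To ask whether SCVS shifted these genes, a test was run over every gene that exceeded 5 counts in 3 or more replicates, at an adjusted p below 0.1, and 32 of the 59 Wnt genes passed this filter. The other 27 were too sparse, among them 15 of the 19 ligands. No Wnt gene was called by edgeR's quasi-likelihood test, which called 0% of the 14815 tested genes. DESeq2 called none of them either, against 0.769% of all tested genes, and limma with voom called none, against 0.0202%. At an unadjusted p below 0.05, edgeR's quasi-likelihood test gave 1 Wnt gene (Wnt16), against 3.1% of all tested genes. DESeq2 gave 2 (Wnt16 and Apc), against 4.46%, and limma with voom 3 (Wnt5a, Wnt16 and Apcdd1), against 5.22%. Wnt16 passed the filter on low counts only through SCVS replicates, where it was high. Its unadjusted p-values are therefore not read as evidence of a change. None of the 32 tested Wnt genes had groups that did not overlap in CPM, against 0.628% of all tested genes. That share is too small to expect any among 32 genes. Without naive 1 and naive 5, edgeR and DESeq2 again called none of the Wnt genes, and Ctnnb1 and Lef1 had groups that did not overlap, against 2.91% of all tested genes.

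Of the 32 tested Wnt genes, 15 had a positive and 17 a negative log2 fold change, with a median of -0.090 against -0.030 over all tested genes. Without naive 1 and naive 5, 11 were positive and 21 negative, with a median of -0.43 against 0.071. For 24 of the 32, the log2 fold change was smaller than its SE. The median SE was 1.84, against 1.42 over all tested genes, and 15 of the 32 (46.9%) had 0 counts in a naive replicate and at least 100 in another, against 34.8% of all tested genes. By role, 2 ligands were higher and 2 lower, 4 receptors each way, and 2 cytoplasmic and nuclear genes higher and 6 lower. Other agonists and their receptors had 2 higher and 0 lower, co-receptors and co-factors 3 and 2, and antagonists 2 and 3. None was past the threshold, and 48.2% of all tested genes were higher. The 8 genes with a log2 fold change above its SE were Wnt16, Wnt7b and Tspan12 on the higher side and Fzd1, Apcdd1, Dkk3, Axin2 and Apc on the lower side. This mark is weaker than the threshold on p, and no share over all tested genes is given for it. The count is therefore not read as a result about the Wnt genes.

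**Figure D4:**
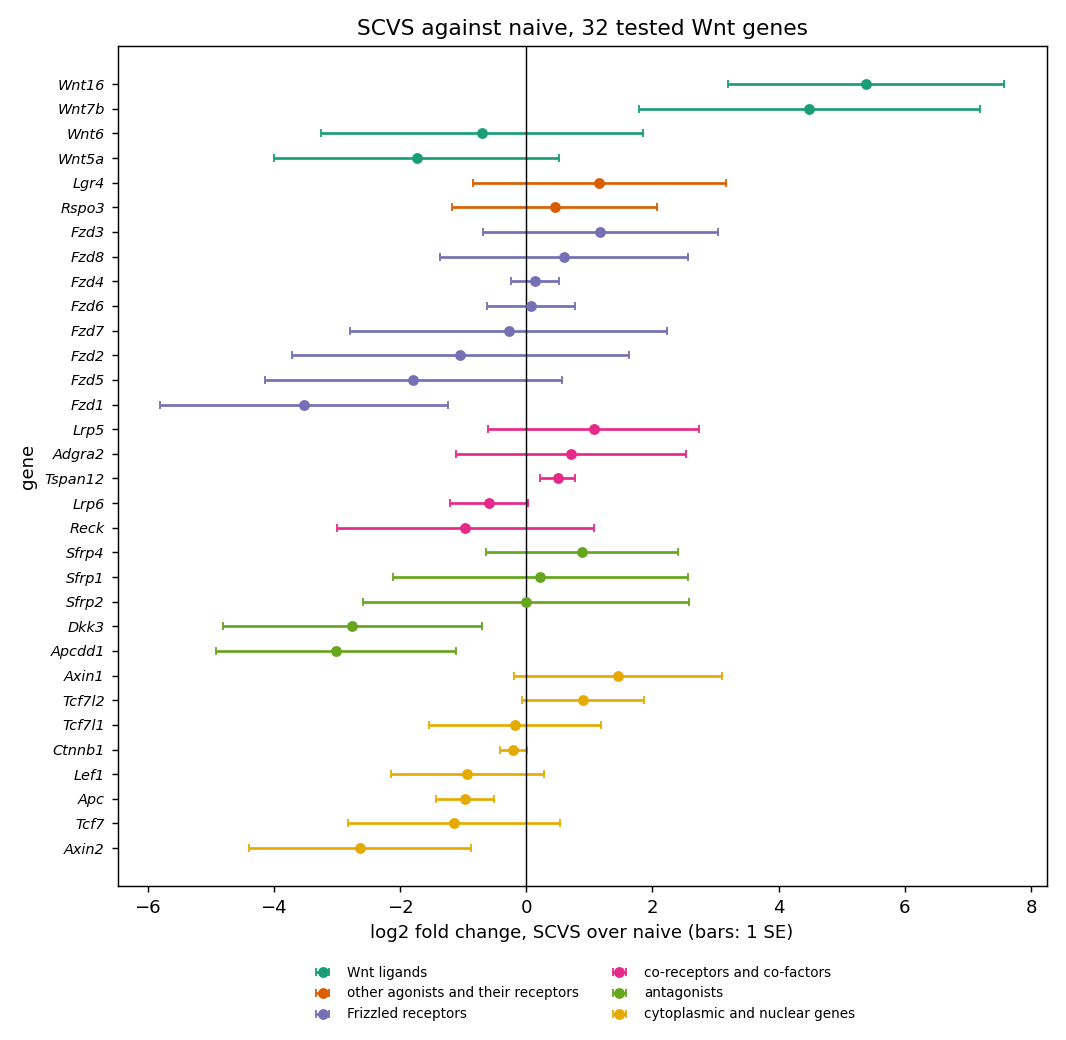
Log2 fold change (SCVS over naive, edgeR) of the 32 tested Wnt genes, colored by role, with bars of 1 SE (derived from the F statistic). None passed an adjusted p of 0.1, and 24 of the 32 lie closer to 0 than 1 SE.

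A list of 77 further pathway genes was read in the same fit, covering ligand secretion, receptor turnover, the degradation complex, planar cell polarity, nuclear partners and target genes. Of these, 69 were tested, and 35 had a positive and 34 a negative log2 fold change. None was called by edgeR's quasi-likelihood test or DESeq2, against 0% and 0.769% of all tested genes. At an unadjusted p below 0.05, edgeR's quasi-likelihood test gave 3 (Gpc3, Gsk3a and Csnk1e), against 3.1% of all tested genes. Csnk1e had 44 to 293 counts in naive and 457 to 1178 in SCVS replicates. It lies outside the rule for named genes and was taken up after its values were seen. Groups that did not overlap in CPM made up 0.628% of all tested genes, and no such share is given for the 69. The log2 fold change of Csnk1e was 1.65 ± 0.64 (adjusted p = 0.99996, edgeR's quasi-likelihood test). DESeq2 gave 1.63 for Csnk1e with an adjusted p of 0.219, and its adjusted p for Gpc3 was 0.221. The median log2 fold change of the 69 genes was 0.021. The 17 tested target genes (among them Nkd1, Myc, Ccnd1 and Sox17) divided into 6 positive and 11 negative, and the 11 planar cell polarity genes into 9 positive and 2 negative. The other lists divided into 3 and 2 (ligand secretion), 3 and 5 (receptor turnover), 6 and 9 (degradation complex) and 8 and 5 (nuclear partners). Over all tested genes 48.2% were positive, and these splits of uncalled genes are not read as results.

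With a pool left out, DESeq2 called 1 Wnt gene in each of 2 fits. Without SCVS 1, the only SCVS replicate with Wnt5a detected, it called Wnt5a (log2 fold change -8.00, adjusted p = 0.00511). That fit called 0.931% of all tested genes. Without SCVS 5 it called Apcdd1 (log2 fold change -5.56, adjusted p = 0.0476) and 1.08% of all tested genes. SCVS 5 held the highest SCVS level of Apcdd1, so each call depended on which pool was left out. In the same fits edgeR's quasi-likelihood test called neither gene.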

How the data were processed

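RNA of sorted meningeal LECs was amplified and sequenced by the authors, who aligned the reads with HISAT2 2.0.1. The methods name the mm9 genome, while the submitters' processing notes name GRCm38 with cutadapt 1.9.1 and HTSeq 0.6.1. The annotation and the use of strand are not given in the sources used here. The authors deposited raw counts per gene, with no normalization or filter.

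Genes that exceeded 5 counts in 3 or more of the 10 replicates (14815) were compared with edgeR's quasi-likelihood test (edgeR 4.0.16, R 4.3.3) after TMM normalization, with Benjamini-Hochberg adjustment over all of them and a threshold of 0.1. DESeq2 1.42.0 and limma 3.58.1 with voom were alternatives. The design had no replicate block, since same-numbered pools hold different animals and no label pairs them. Whether such pools shared a cohort or a sort is not given. The tests were also run on simulated counts with 200 changed genes, at a low spread and at the spread of these data. Only recovery by edgeR's quasi-likelihood test at the low spread was required. Recovery at the spread of these data was counted but set no requirement, and it is not reported here. The check is therefore not used to say how well the tests find changes at that spread. CPM used the total count. Exon lengths and overlaps came from GENCODE M1, which holds 58.8% of the identifiers and all 59 Wnt genes, and sequences and positions from RefSeq (GRCm38.p6). The genes given with full values were any called or with groups that did not overlap, the 5 largest changes each way, the 10 highest per kilobase, and the Norrin, Wnt7 and nuclear genes. The members and lists were chosen with earlier results of these data known. The cohort of each pool is not given in the sources used here, so no comparison within cohorts was made.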

Additional observations from a re-analysis of the deposited data

Results flagged for a closer look

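In 66 groups of 5 replicates (27 named genes and 6 role sums, in each condition), the gap between the most extreme replicate and the next, as a share of the range of log2(CPM + 1), was set against Dixon's limit of 0.71. The limit is set so that chance passes it in about 1 of 20 groups of normally distributed values. Of the 66, 6 passed it, but in 4 of these (Wnt16, Wnt7a and both groups of Ndp) 4 of the 5 values were 0, which fixes the ratio at 1, so that rate does not apply to them. Wnt16 was above 0 among naive replicates only in naive 3 (0.286 CPM, ratio 1). Wnt7a was above 0 among SCVS replicates only in SCVS 1 (1.92 CPM, ratio 1). Ndp was above 0 only in naive 5 (73.8 CPM, ratio 1) and, among SCVS replicates, only in SCVS 4 (34.8 CPM, ratio 1). Adgra2 was far below the other SCVS replicates in SCVS 3 (0.568 CPM, ratio 0.745). Lef1 was at 0 CPM in naive 5 (ratio 0.883), the replicate with the lowest pan-endothelial level.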

How the results depend on the processing

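The count of Wnt genes called stayed at 0 in every alternative of edgeR, DESeq2, limma and the exact permutation test that used all replicates. With each replicate left out in turn it was 0 to 1, both calls by DESeq2, an alternative added after seeing the data. Wnt genes with an unadjusted p below 0.05 (1 in edgeR's quasi-likelihood test, with 3.1% of all genes) numbered 2 in DESeq2 with or without Cook's filter (4.46% and 4.81% of all genes), 3 in limma with voom (5.22%), 5 with no filter on low counts (16.8%) and 0 with CPM over 1 in at least 5 replicates (1.17%). With a replicate left out they numbered 0 to 3 in edgeR and 0 to 4 in DESeq2 (3.34% to 6.74% of all genes), and without naive 1 and naive 5 they numbered 0 in both (4.58% and 7.42%). With the replicate number as a block the count was 0 (1.80% of all genes), and the block made no call. Same-numbered replicates correlated between -0.017 and 0.15 in their deviations, so the rule that every pair exceed 0.1 was not met and the block stayed an alternative. Of the 5 naive replicates, 4 correlated best with their own number, a hint from the data and not the design.

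Over all genes the count called (0 in edgeR's quasi-likelihood test, which gave 460 at an unadjusted p below 0.05) was 38 with edgeR's likelihood ratio test, 114 in DESeq2, 123 in DESeq2 without Cook's filter, 3 in limma with voom, and 0 to 270 with a replicate left out (0 in edgeR, 136 to 270 in DESeq2). Leaving out naive 1 and naive 5, chosen after seeing the data, gave 342 in DESeq2 and 0 in edgeR. Wnt genes whose groups did not overlap numbered 0 to 1 with a replicate left out (Ctnnb1 without naive 1, Apc without naive 2, Lef1 without naive 5, Wnt5a without SCVS 1, Apcdd1 without SCVS 5), against 1.14% to 1.36% of all tested genes, and 2 without naive 1 and naive 5, against 2.91%. The cause of these shifts was not tested.

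Of 25 named and tested genes, 18 kept the sign of the log2 fold change in up to 23 alternatives. Fzd3 reversed in limma with voom (-1.75), under the replicate block (-0.22) and with a replicate left out (-0.24 to 2.16). Tcf7l1 reversed in limma with voom (1.74), under the block (0.79) and with a replicate left out (-0.74 to 0.43). With a replicate left out, Fzd4 ranged from -0.043 to 0.41, Fzd6 from -0.16 to 1.08 and Sfrp4 from -0.026 to 1.37. Without naive 1 and naive 5, Fzd4 was -0.10, Fzd6 -0.39 and Rspo3 -0.28. Axin1 was -2.73 with the number of detected genes as covariate. The count of genes detected in all replicates (7) was 7 to 8 with a replicate left out and 10 without naive 1 and naive 5. With a pseudocount of 0.1 in place of 1, 8 groups in place of 6 passed Dixon's limit, the added ones being Dkk3 (ratio 0.741) and Tcf7 (0.799) in naive replicates, each with a replicate at 0.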
